A study of Arabidopsis thaliana with 31 samples.

Results

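The expression of 40 genes that make, remove or perceive cytokinin was followed in single cells of the *Arabidopsis* root. They were given as a list of loci for these roles, out of 32678 loci in the table, and no value entered the rule. They were 3 receptors, 6 phosphotransfer proteins, 5 type B and 10 type A response regulators, 7 cytokinin oxidases, 6 LOG enzymes and 3 isopentenyltransferases. Of these 40 genes, 28 were above 0 in at least 1 library and 12 were at 0 in all 31 libraries.

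Cytokinin is a plant hormone that binds membrane receptors with histidine kinase activity. The signal passes as a phosphate through AHP proteins to response regulators in the nucleus. Type B regulators (ARR1, ARR2, ARR10, ARR11 and ARR12 here) bind DNA and switch on target genes, and among these targets are the type A regulators, which dampen the response. IPT enzymes start cytokinin synthesis, LOG enzymes release the active hormone, and CKX enzymes degrade it. In the root tip, cytokinin signaling is known for its role in the vascular tissue and in setting where cells leave the meristem.

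Cells were isolated by cell-wall digestion and picked by fluorescence, and all plants were Col-0. The 20 quiescent center (QC) cells, the slowly dividing cells at the heart of the root stem cell niche, came from *WOX5:GFP* plants of a labelled age of 6 DAS. The 4 aliquots were libraries made from other QC cells of this line, pooled, lysed and split. The stele cells, from the inner tissue that forms the vasculature, came from *WOL:CRE-GR 35S:lox-CFP* plants labelled 7 DAS, in which CFP marks the descendants of cells where the *WOL* promoter was active at induction with dexamethasone. In both stele groups the root tip with the QC and the surrounding stem cells had been cut off, in 3 cells just before harvest (0 h) and in 4 cells 16 h earlier (16 h). Line, age, cut and the dexamethasone treatment, which the QC plants did not get, differ between QC and stele cells, and the part of each in a difference between them cannot be told apart. The study describes QC cells as collected in 4 batches, which the labels do not assign to cells, and the 4 cells at 16 h as isolated from the root it pictures. The labels name no plant for a cell, so cells were taken as 1 sample per group and no test was made across them.

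The table held log2 values, from which reads were recovered. Levels are given as FPM, reads per 1000000 reads of the library. Because FPM is not corrected for gene length, levels are compared between cells and not between genes. Single QC cells had 12071810 to 115114702 reads, aliquots 83718007 to 127775758, and stele cells 11637897 to 35185668. The lists of detected genes were nested. A gene at 0 in QC cell 1 was at 0 in QC cells 8 to 13 as well, and the same held for QC cell 2 and cells 3 to 7, for QC cell 14 and cells 19 and 20, and for the first aliquot and the first stele cell of each time point with the rest of their groups. Where all libraries of such a set are at 0, these zeros therefore rest on its first library. Since the authors removed genes of low coverage, a 0 sets no upper limit on expression. QC cells 15 and 16 were nearly alike (median chi-square per gene 2.38), as were cells 17 and 18 (2.41), against 184 for the next closest pair. The QC marker *WOX5* was at 124 to 3193 FPM in all 20 QC cells and at most 5.24 FPM in a stele cell. Its promoter drove the reporter by which QC cells were picked, so it is no independent check. *SCR* ran from 0.106 to 1918 FPM and *PLT1* from 0.674 to 1473 FPM in QC cells. *PLT2* ran from 0.142 to 1177 FPM there and *BBM* from 2.13 to 1072 FPM. In stele cells *SCR* was at 0, *PLT1* at most 0.258, *PLT2* at most 3.27 and *BBM* at most 10.9 FPM. The *GFP* sequence was at most 0.972 FPM in a QC cell, although that line carries *GFP*. In stele cells, which were picked by CFP, it was at 568 to 2432 FPM. The stele marker *SHR* stood at 49.7, 149 and 25.6 FPM in the stele cells at 0 h and at 0 in all 4 at 16 h.

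Stele cells at 0 h held more of the cytokinin genes than QC cells did. The number above 0 was 19 to 23 per stele cell at 0 h (median 20), 14 to 18 at 16 h (median 15), 2 to 13 per QC cell (median 6) and 10 to 14 per aliquot (median 13). The lowest stele cell at 0 h was above the highest QC cell, which was QC cell 14, the most deeply sequenced of the 20. At a level of 1 FPM or more the medians were 17, 11.5, 3.5 and 7. Stele libraries also listed more genes of any kind. Of the values of all loci, 37.6% were above 0 at 0 h, 38.3% at 16 h and 20.2% in QC cells, against 51.7%, 38.8% and 16.1% of the values of the cytokinin genes.

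Low values were common among the genes that were detected. Of 129 values above 0 in QC cells, 54 (41.9%) were under 1 FPM, as were 20 of 50 in aliquots, 10 of 62 at 0 h and 17 of 62 at 16 h. For scale, the *CFP* sequence of the stele line, which is close to *GFP*, reached 0.823 FPM in a QC cell and 3.40 FPM in an aliquot. In the same libraries *GFP* was at 0.972 and 3.41 FPM, and which of these sequences the reads came from was not tested. Values of this size are given below as listed and not as evidence of expression.

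**Figure D1:**
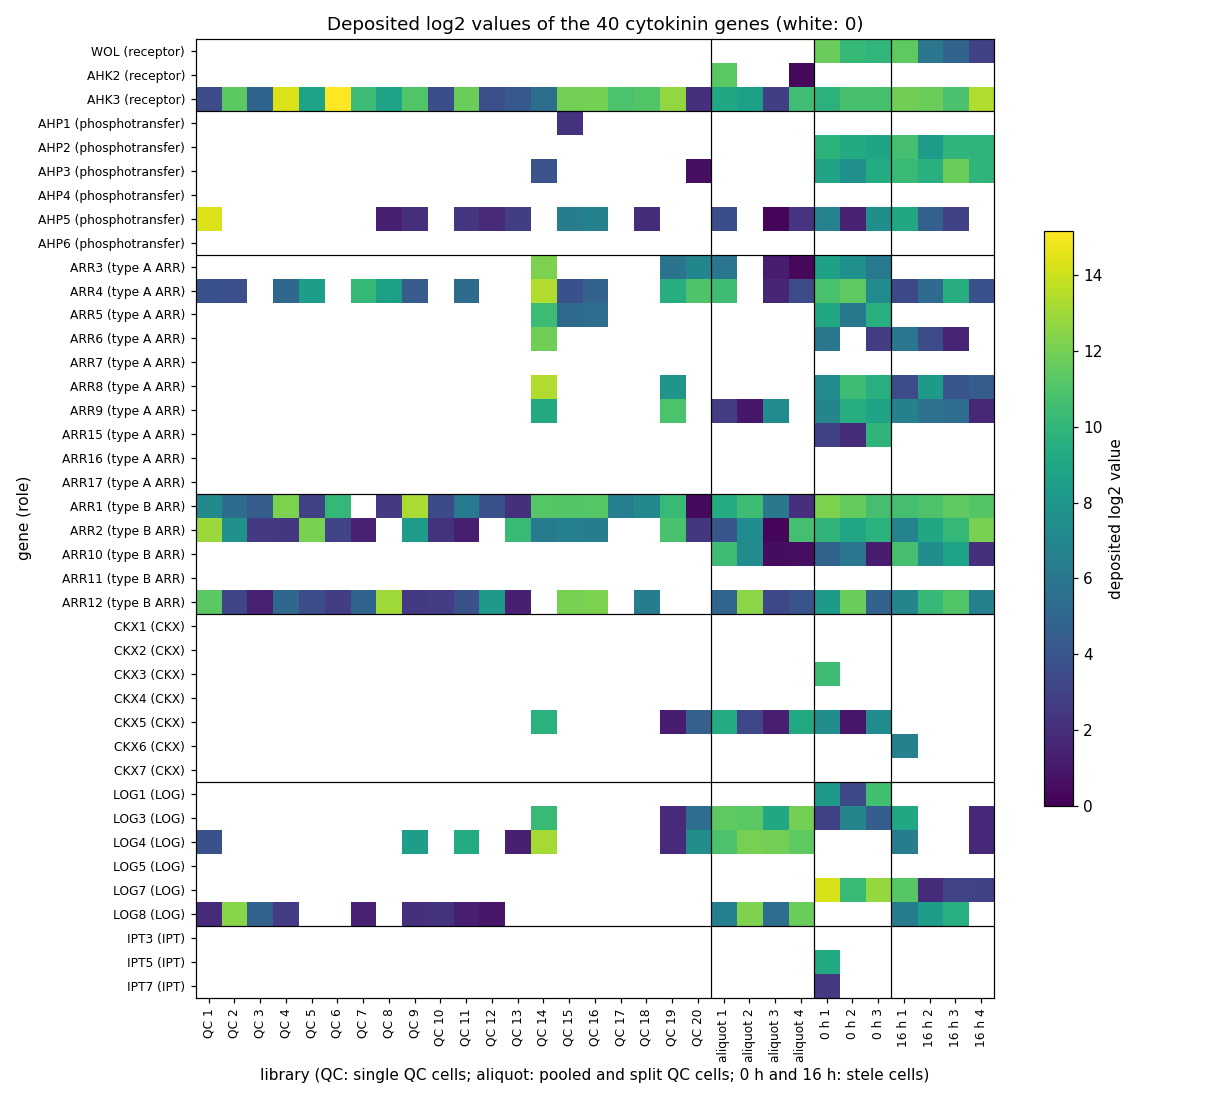
Deposited log2 values of the 40 cytokinin genes (rows, grouped by role) in the 31 libraries (columns), with white for 0. *AHK3* is coloured in every column, 6 of the 10 type A genes are coloured in QC cell 14 and 6 or 7 in the stele cells at 0 h, and 12 rows are white throughout.

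**Figure D2:**
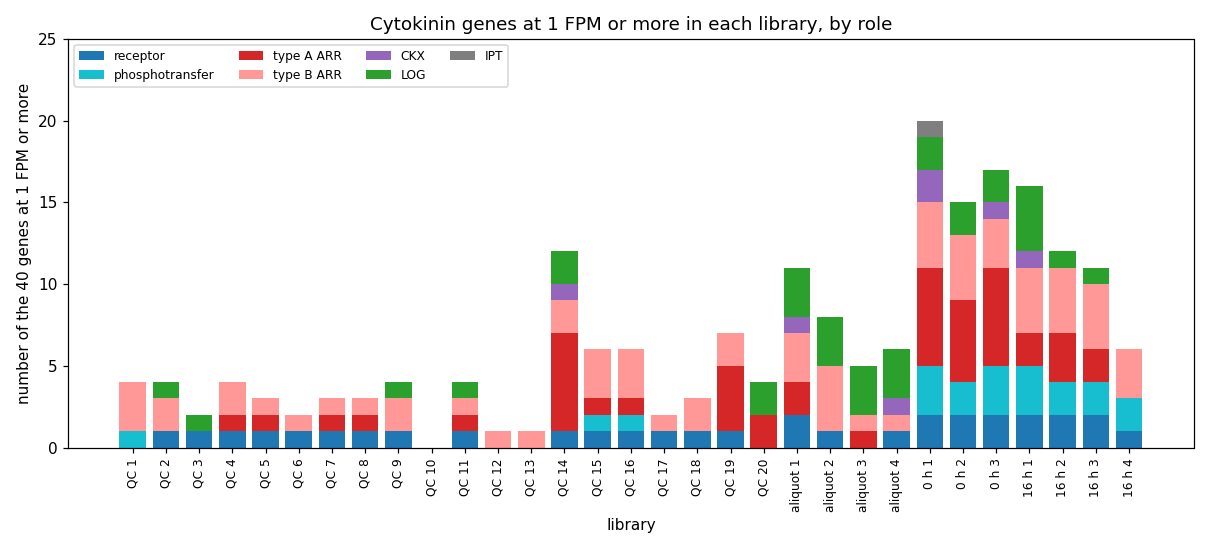
Number of the 40 cytokinin genes at 1 FPM or more in each library, stacked by role. QC cell 14 holds 12, the other QC cells 0 to 7, and the stele cells at 0 h 15 to 20.

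Of the receptors, *AHK3* (AT1G27320) was present in every library while *WOL* (AT2G01830) was confined to the stele libraries in this table. *AHK3* was above 0 in 20 of 20 QC cells (95% interval of the share 83.2% to 100%, by the Clopper-Pearson method, with cells taken as separate). Among these are all 7 cells whose gene lists are not nested in another, which hold both nearly alike pairs. The level of *AHK3* over the 20 QC cells ran from 0.118 FPM in QC cell 20 to 1603 in QC cell 6. The median was 64.8, and 13 cells were at 10 FPM or more. The QC cells thus spanned the level of the stele cells at 0 h, which were at 31.1, 66.3 and 64.8 FPM. At 16 h *AHK3* stood at 139, 131, 70.2 and 411 FPM, each above the highest cell at 0 h, and the medians differed by 1.05 on the log2 scale (135 against 64.8 FPM). The aliquots were at 20.5, 15.2, 0.227 and 57.0 FPM, a wide range for shares of 1 lysate.

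*WOL*, the receptor known for its part in forming the root vasculature, was listed at 0 in all QC cells and aliquots. In the stele it stood at 125, 44.8 and 37.8 FPM at 0 h and at 99.7, 2.44, 1.06 and 0.257 FPM at 16 h. The medians differed by -4.76 on the log2 scale, but the first cell at 16 h lay within the range at 0 h. Since the *WOL* promoter drove the CRE by which the stele lineage was marked, *WOL* in stele cells is not independent of how the cells were picked. *AHK2* (AT5G35750) was listed in 2 libraries only, at 90.7 FPM in aliquot 1 and 0.00924 FPM in aliquot 4.

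Of the phosphotransfer genes, *AHP2* and *AHP3* were found mainly in stele cells and *AHP5* in both tissues. *AHP2* (AT3G29350) was at 0 in every QC cell and aliquot. In stele cells it stood at 32.7, 23.9 and 17.4 FPM at 0 h and at 62.5, 12.5, 37.0 and 36.0 FPM at 16 h, so that the times overlapped. *AHP3* (AT5G39340) was above 0 in 2 QC cells, at 0.504 and 0.0214 FPM, and in none of the aliquots. It stood at 16.8, 7.65 and 24.0 FPM at 0 h and at 46.6, 30.1, 132 and 37.1 FPM at 16 h. Every cell at 16 h was above every cell at 0 h, with medians 1.26 apart on the log2 scale (41.9 against 16.8 FPM).

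*AHP5* (AT1G03430) was above 0 in 9 of 20 QC cells (lowest 0, median 0, highest 780 FPM). QC cell 1 held the highest value, and the next were QC cells 16 and 15 at 3.70 and 3.03 FPM. Aliquots were at 0.427 FPM or less. In stele cells it was at 3.87, 0.0711 and 7.09 FPM at 0 h and at 19.2, 0.938, 0.256 and 0 FPM at 16 h, with overlap between the times. *AHP1* was listed only in QC cell 15 (0.141 FPM). *AHP4* and *AHP6*, the latter a pseudo-phosphotransfer protein known to inhibit signaling in the protoxylem, were at 0 throughout.

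By role, the 5 type B genes among the 40 were the most often detected in QC cells. Of their values in QC cells, 51.0% were above 0, against 20.2% over all loci. This share holds for these 5 genes only. Of the type B genes outside the 40, *ARR13*, *ARR14*, *ARR19*, *ARR20* and *ARR21* were at 0 in all QC cells. *ARR18* was at 0.305, 30.5 and 31.9 FPM in QC cells 16, 17 and 18 and at 0 in the others. *ARR1* (AT3G16857) was above 0 in 19 of 20 QC cells (lowest 0, median 3.39, highest 407 FPM in QC cell 9). Stele cells were at 170, 120 and 63.5 FPM at 0 h and at 61.7, 76.3, 109 and 86.5 FPM at 16 h. All 7 stele cells thus lay within the range of the QC cells, but above the QC median.

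*ARR2* (AT4G16110) and *ARR12* (AT2G25180) were each above 0 in 16 of 20 QC cells. *ARR2* had a median of 0.269 and a highest value of 282 FPM (QC cell 1), and *ARR12* a median of 0.398 and a highest value of 331 FPM (QC cell 8). The highest cell differed for each of the 3 genes. In stele cells *ARR2* was at 35.4, 19.5 and 30.5 FPM at 0 h and at 4.10, 21.1, 42.9 and 168 FPM at 16 h. *ARR12* was at 11.3, 128 and 1.03 FPM at 0 h and at 4.48, 44.9, 82.3 and 3.76 FPM at 16 h. Neither gene separated the times, and both varied among cells of the same time.

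*ARR10* (AT4G31920) was at 0 in all 20 single QC cells and above 0 in all 4 aliquots, at 52.4, 6.06, 0.0157 and 0.0185 FPM. In stele cells it was at 1.03, 2.38 and 0.0492 FPM at 0 h and at 61.2, 6.62, 16.7 and 0.128 FPM at 16 h. At 16 h, 3 of 4 cells were above all cells at 0 h and the fourth was not. *ARR11* was at 0 throughout.

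Type A regulators, the largest group, were lower in sum at 16 h than at 0 h and uneven among QC cells. In stele cells at 0 h, 6 or 7 of the 10 genes were above 0, and their summed level was 115 to 196 FPM. At 16 h, 3 or 4 genes were above 0, and the sum was 1.41 to 29.1 FPM. *ARR3* (AT1G59940) was at 14.9, 7.50 and 2.71 FPM at 0 h, and *ARR5* (AT3G48100), often used as a reporter of cytokinin response, at 19.4, 2.67 and 27.7 FPM. Both were at 0 in all 4 cells at 16 h.

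*ARR15* (AT1G74890) was at 0.258, 0.107 and 36.2 FPM at 0 h and also at 0 in all cells at 16 h. *ARR9* (AT3G57040) was at 4.30, 26.4 and 17.3 FPM at 0 h and at 3.77, 1.96, 1.58 and 0.0855 FPM at 16 h. Its cells did not overlap, and the medians differed by -3.30 on the log2 scale (1.77 against 17.3 FPM). The gap between the nearest cells was small, 3.77 against 4.30 FPM.

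The remaining type A genes of the stele overlapped between the times. *ARR4* (AT1G10470) was at 67.6, 106 and 5.90 FPM at 0 h and at 0.335, 1.51, 26.9 and 0.513 FPM at 16 h. *ARR8* (AT2G41310) was at 5.93, 53.4 and 29.0 FPM at 0 h and at 0.377, 11.8, 0.586 and 0.812 FPM at 16 h. In each of them 1 cell at 16 h exceeded the lowest cell at 0 h, the third for *ARR4* and the second for *ARR8*. *ARR6* (AT5G62920) was low at both times, at 2.32, 0 and 0.197 FPM and at 2.30, 0.398, 0.0733 and 0 FPM. *ARR7*, *ARR16* and *ARR17* were at 0 throughout.

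In most QC cells few type A genes were listed above 0, while QC cell 14 held 6 of the 10. In it *ARR4* was at 388, *ARR8* at 379, *ARR3* at 168, *ARR6* at 137, *ARR5* at 48.6 and *ARR9* at 21.7 FPM, a sum of 1141 FPM. QC cells 19 and 20, whose gene lists lie within that of cell 14, had sums of 106 and 82.1 FPM. In the other 17 QC cells only *ARR4* and *ARR5* were above 0, and the sum was 0 to 48.8 FPM. *ARR4* was above 0 in 10 of these 17 cells, with 48.8 FPM in QC cell 7, and *ARR5* in QC cells 15 and 16, at 1.41 and 1.55 FPM.

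QC cells 14, 19 and 20 were also the most deeply sequenced, with 93606126 to 115114702 reads against 12071810 to 72145275 for the other 17. *WOX5* was at 2235 FPM in QC cell 14. Of the 7 stele markers, *SHR*, *TMO5*, *ATHB8* and *CNA* were at 0 there, *PHB* was at 0.434, *LHW* at 0.773 and *PHV* at 4.66 FPM. The epidermal marker *GL2* was at 1.40 FPM, and *WER*, *CASP1*, *MYB36*, *SMB* and *BRN1*, markers of epidermis, endodermis and root cap, were at 0. The part of depth in the type A values of this cell was not tested. In the aliquots *ARR4* was at 52.3, 0, 0.0783 and 0.407 FPM, *ARR3* at 2.29 FPM or less, *ARR9* at 6.37 FPM or less, and the other 7 genes at 0.

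**Figure D3:**
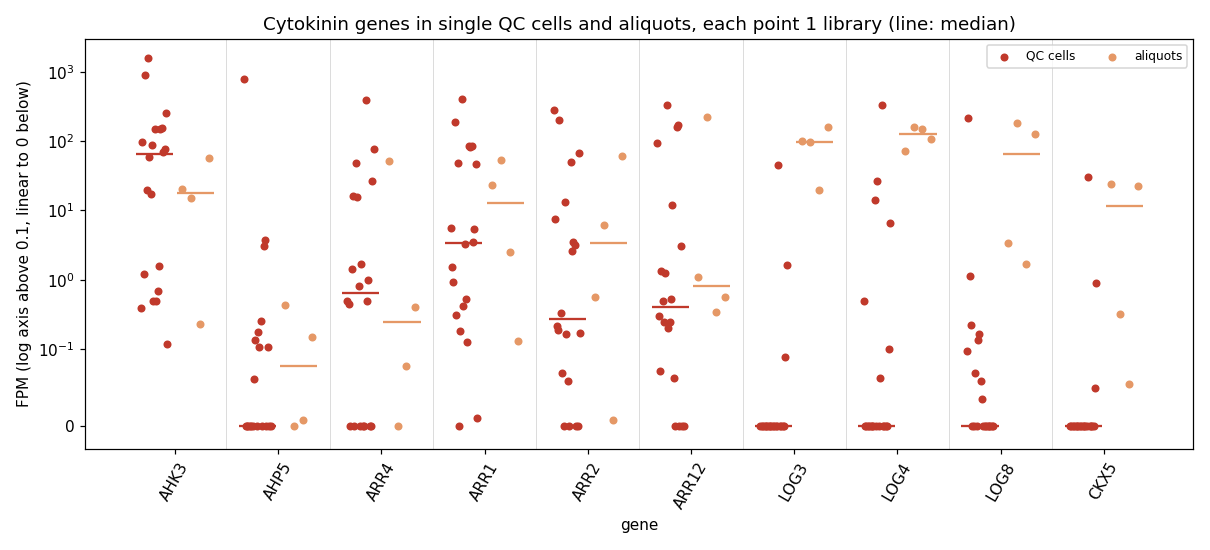
FPM values of 10 cytokinin genes in the 20 single QC cells and the 4 aliquots of pooled QC cells, with 1 point per library and a line at the median (log axis above 0.1 FPM, linear to 0 below). *LOG4* lies between 71.7 and 161 FPM in the aliquots while 13 of 20 cells are at 0, and *AHK3* ranges from 0.118 to 1603 FPM in the cells.

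LOG genes, whose enzymes turn cytokinin nucleotides into the active bases, differed in where they were listed. *LOG4* (AT3G53450) was at 71.7, 161, 151 and 106 FPM in the aliquots, the narrowest of the 12 genes above 0 in both aliquots and QC cells (SD of log2 values 0.51). *LOG3* (AT2G37210) was at 99.1, 97.8, 20.1 and 159 FPM there. Single QC cells were mostly at 0 for both. *LOG4* was above 0 in 7 of 20 cells (35.0%, exact interval 15.4% to 59.2% with cells taken as separate), at 330 FPM in QC cell 14, 26.7 in cell 11, 14.4 in cell 9, 6.70 in cell 20 and under 1 FPM in the other 3. Of the 7 cells not nested in another, which hold both nearly alike pairs, it was above 0 in 2 (interval 3.67% to 71.0%, again with cells taken as separate). *LOG3* was above 0 in 3 cells, at 45.9, 1.62 and 0.0896 FPM in QC cells 14, 20 and 19. Apart from QC cell 14, every QC cell was below the lowest aliquot for both genes. The aliquots also had more reads than most of the cells, and the part of depth in this gap was not tested.

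In stele cells *LOG4* was at 0 in all 3 cells at 0 h and at 3.10, 0, 0 and 0.0855 FPM at 16 h. *LOG3* was at 0.258, 4.59 and 0.836 FPM at 0 h and at 20.4, 0, 0 and 0.0855 FPM at 16 h. *LOG8* (AT5G11950) was above 0 in 9 QC cells, at 217 FPM in QC cell 2 and at 1.14 FPM or less in the others, and in all aliquots, at 3.44, 185, 1.67 and 129 FPM. In the stele it was at 0 in all cells at 0 h and at 3.14, 13.6, 28.6 and 0 FPM at 16 h.

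*LOG7* (AT5G06300) and *LOG1* (AT2G28305) were at 0 in every QC cell and aliquot. *LOG7* was at 724, 47.2 and 266 FPM at 0 h, and at 16 h it was at 87.9 FPM in the first cell and at 0.114, 0.293 and 0.257 FPM in the rest. The medians differed by -9.77 on the log2 scale, and the first cell at 16 h overlapped with the range at 0 h. *LOG1* was at 10.4, 0.356 and 57.3 FPM at 0 h and at 0 in all cells at 16 h. *LOG5* was at 0 throughout.

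Of the 40 genes, those for CKX and IPT were the least detected in single cells. *CKX5* (AT1G75450) was above 0 in QC cells 14, 20 and 19 (30.7, 0.897 and 0.0498 FPM) and in all aliquots (24.1, 0.323, 0.0548 and 22.9 FPM). It was at 6.27, 0.0356 and 5.95 FPM in stele cells at 0 h and at 0 in all 4 at 16 h. Of the other oxidases, *CKX3* was listed only in the first cell at 0 h (52.1 FPM) and *CKX6* only in the first cell at 16 h (3.60 FPM), while *CKX1*, *CKX2*, *CKX4* and *CKX7* were at 0. *IPT5* (22.0 FPM) and *IPT7* (0.172 FPM) were listed only in the first cell at 0 h, and *IPT3* was at 0. Outside the 40, *IPT1*, *IPT4*, *IPT6* and *IPT8* were at 0 throughout. *IPT2* reached 274 FPM in QC cell 2 and was at 172, 43.5, 178 and 0.00924 FPM in the aliquots. In stele cells it was at 4.55, 5.26 and 12.9 FPM at 0 h and at 1.93, 21.4, 0.0366 and 2.61 FPM at 16 h. *IPT9* reached 36.4 FPM in QC cell 19. It was at 0.172, 0.284 and 0 FPM at 0 h and at 22.1, 13.9, 0.110 and 0.385 FPM at 16 h.

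The comparison of QC cells with stele cells at 0 h asks which cytokinin genes differ between the stem cell niche and the tissue that forms vessels. A gene was called when all cells of 1 group lay above all cells of the other and the medians of the log2 values were at least 1 apart, and 26 of the 40 genes were above 0 in at least 1 of these libraries. None was called higher in QC cells, where 0.166% of 16270 genes were. Called higher in stele cells were 7 of 26 (26.9%), *WOL*, *AHP2*, *AHP3*, *ARR10*, *ARR15*, *LOG1* and *LOG7*, against 14.5% of all genes. By medians 20 of 26 (76.9%) were lower in QC cells, against 69.5% of all genes, and 6 were equal. The 20 include *AHK3*, whose difference of -0.11 on the log2 scale changed sign under 15 alternatives. The median difference was -5.96 on the log2 scale for the cytokinin genes and -4.53 for all genes tested.

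These calls depend on low values and on a few cells. *ARR10* was not called with the aliquots counted among the QC libraries (6 genes, 10.8% of all genes), after thinning or with a minimum of 10 FPM, and *ARR15* was not called on the scale of log2 of FPM plus 1. In aliquots 1 and 2 *ARR10* was above every stele cell at 0 h. When every stele cell was also required to be at 1 FPM or more, 4 genes (*WOL*, *AHP2*, *AHP3* and *LOG7*) were called, against 9.10% of all genes. Without QC cells 14, 19 and 20, 13 genes were called, *ARR3*, *ARR5*, *ARR8*, *ARR9*, *CKX5* and *LOG3* in addition, against 25.1% of all genes.

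The comparison of stele cells at 16 h with those at 0 h asks how the genes differ while the root tip regenerates. *AHK3* and *AHP3* were called higher at 16 h (2 of 26, 7.69%), against 9.92% of 15156 genes. Called lower were *ARR3*, *ARR5*, *ARR9*, *ARR15*, *CKX5* and *LOG1* (6 of 26, 23.1%), against 12.3% of all genes. By medians 7 genes (26.9%) were higher, against 47.8% of all genes, 15 (57.7%) were lower, against 48.3%, and 4 were equal, with a median difference of -0.34 on the log2 scale for the cytokinin genes and 0 for all genes tested. Of the type A genes above 0 in a stele cell, 4 of 7 were called lower and *ARR4*, *ARR6* and *ARR8* were not called. None of the 4 type B genes among the 40 was called in either direction.

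Of the 6 genes called lower, *ARR3*, *ARR5*, *ARR15*, *CKX5* and *LOG1* were at 0 in all cells at 16 h, and these zeros rest on the list of the first cell at 16 h. Leaving that cell out keeps the zeros of the other cells, so it cannot test these 5 calls. Without the first cell at 16 h, 9 genes were called lower, with *WOL*, *LOG3* and *LOG7* in addition (14.4% of all genes), and only *AHP3* was called higher (11.0%). Without the first cell of both times 10 were called lower, with *ARR8* in addition (17.1%), and *AHP3* higher (14.0%). Without the fourth cell at 16 h *AHP3*, *ARR10* and *LOG8* were called higher (16.7%). Asking for 1 FPM or more in every cell at 0 h left *ARR3*, *ARR5* and *ARR9* (7.88%), and asking for medians at least 2 apart left no gene called higher (8.94%).

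**Figure D4:**
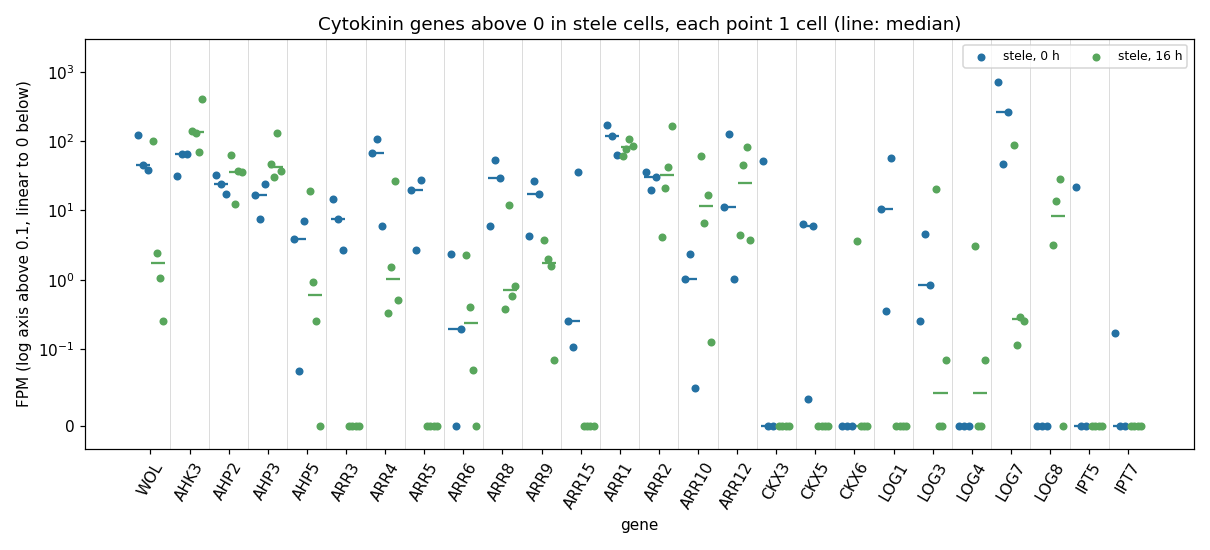
FPM values of the 26 cytokinin genes above 0 in a stele cell, with 1 point per cell at 0 h (blue, 3 cells) and 16 h (green, 4 cells) and a line at the median (log axis above 0.1 FPM, linear to 0 below). *ARR3*, *ARR5*, *ARR15*, *CKX5* and *LOG1* are at 0 in every cell at 16 h, and all 4 green points of *AHK3* and *AHP3* lie above the blue ones.

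Stele markers differed between the same cells. *ATHB8* was at 325, 515 and 204 FPM at 0 h and at 7.16, 0, 0.147 and 1.15 FPM at 16 h, and *CNA* at 373, 29.1 and 233 FPM and at 2.26, 1.25, 9.01 and 1.28 FPM. *TMO5* was at 51.0, 382 and 2.07 FPM at 0 h and at 95.0, 0, 0 and 1.11 FPM at 16 h, highest in the first cell at 16 h, in which *WOL* and *LOG7* were also highest. *PHB* was at 146, 35.4 and 129 FPM and at 1.72, 13.7, 1.21 and 14.2 FPM, while *LHW* (26.7, 11.7 and 40.4 against 4.06, 21.4, 2.27 and 10.7 FPM) and *PHV* (32.6, 3.38 and 99.7 against 13.7, 0.881, 9.31 and 1.07 FPM) overlapped. *GL2* was at 0 at 0 h and at 0.0366 to 4.65 FPM at 16 h, and the other 5 markers of outer tissues were at 0 in all stele cells. Their part in the cytokinin values was not tested.

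Of 35 other genes of the pathway, 16 were above 0 in a stele cell. At 16 h *CRF1*, *CRF2* and *UGT85A1* were called higher (3 of 16, against 9.92% of all genes) and *AHK5* lower (1 of 16, against 12.3%). *CRF1* and *CRF2*, cytokinin response factors of the AP2/ERF family, were at 0 at 0 h and at 1.80, 1.22, 1.72 and 0.428 FPM and at 6.66, 7.42, 0.403 and 11.9 FPM at 16 h. *UGT85A1*, which glucosylates zeatin, was at 0 at 0 h and at 0.586, 2.05, 30.8 and 0.128 FPM at 16 h, so that most of these values were low. The zeros of *CRF1*, *CRF2* and *UGT85A1* at 0 h rest on the list of the first cell at 0 h. *AHK5*, a histidine kinase outside the group of cytokinin receptors, was at 121, 44.3 and 74.0 FPM at 0 h and at 30.1, 21.9, 2.71 and 6.24 FPM at 16 h. In the QC comparison 17 of the 35 were above 0 in a library, and *CRF3* alone was called, higher in the stele (1 of 17, against 14.5% of all genes). *CRF3* was at 0 in every QC cell, at 0.172, 49.9 and 0.295 FPM in stele cells at 0 h and at 0.0185 to 0.767 FPM in the aliquots, so this call rests on low values. Higher in QC cells by medians, but not called, were *CRF6* (106 against 0.246 FPM), *PUP14* (315 against 5.24 FPM), *UGT76C2* and *UGT85A1*. Lower there by medians and not called were *IPT2*, *IPT9*, *CRF4*, *ENT3*, *AHK5* and *IAA3*, and the rest were equal.

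The aliquots, shares of 1 lysate, were set beside the single QC cells. They had more reads than most cells and the gene lists of the others lie within that of aliquot 1, so the gap in spread does not isolate differences between cells. Of the 12 cytokinin genes above 0 in both kinds of library, 7 (58.3%) had a larger SD of log2 values over the 20 cells than over the 4 aliquots, against 69.8% of 10166 genes. *LOG4* had the widest gap, with an SD of 4.00 over cells and 0.51 over aliquots, followed by *AHP5* (3.55 and 1.73) and *LOG3* (2.55 and 1.31). For *AHK3* (4.07 and 3.42), *ARR1* (4.12 and 3.74), *ARR12* (4.39 and 4.28) and *ARR3* (3.24 and 2.79) the spread over aliquots came near that over cells. For *ARR2* (4.33 and 4.44), *ARR4* (4.32 and 4.61), *ARR9* (3.10 and 3.28), *LOG8* (2.90 and 3.47) and *CKX5* (2.35 and 4.14) it was larger. By the CV of FPM values, in which the few highest values weigh most, all 12 were more variable over cells, as were 97.1% of all genes.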

How the data were processed

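RNA-seq libraries of single root cells were used. The authors amplified cDNA and aligned the reads to TAIR10 with Bowtie2. They summed exon reads per gene, splitting a read with several locations into parts, dropped genes of low coverage and scaled each library by its depth. The deposited values are log2 of the scaled reads plus 1. The scale of each library was recovered from the steps between low values, and every value under 1000 reads was whole within 0.05 reads. Because reads were split, a read here may stand for less, and close copies may share reads, which was not tested. FPM is reads per 1000000 of the library's listed total over 32678 loci. Library depth was 11637897 to 127775758 reads, and 1 read was worth at most 0.0859 FPM.

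Groups followed the labels for cell type and time. The labels name no plant for a cell, and the study describes roots of 1 plate and, for the cells at 16 h, the root it pictures, so groups were described by values, medians and ranges. A gene was called when the cells of both groups did not overlap and the medians of log2 values were at least 1 apart, over all genes above 0 in a library compared. Intervals of shares of cells (Clopper-Pearson, exact, 95%) cover counting error only and take cells as separate. Sets of libraries came from nested gene lists, and nearly alike libraries from the median chi-square over genes with a minimum of 20 reads in the pair.

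The members and all lists were chosen with earlier results of these data known. All 40 genes could be named, with values in every library (lowest, median and highest in QC cells) for those above 0 in at least 50% of the cells of a group of cells or called in a comparison. Other pathway genes were named where called. Names of all 93 listed genes were checked against RefSeq TAIR10.1, and no coordinates were used because that assembly differs from the one of the authors.

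Alternatives were other pseudocounts, median ratio scaling, thinning to 11637897 reads (seed 1), a minimum of 10 FPM, other call thresholds, aliquots counted among QC cells, only the QC cells whose detected genes are not nested in another library, nearly alike pairs counted once, other levels of detection, the CV, and leaving out single stele cells or aliquots. Further alternatives, chosen after seeing the data, left out QC cells 14, 19 and 20, the first library of each stele set or each QC cell in turn, or asked for 1 FPM in every cell of the higher group. Computations ran in Python 3.11.15 with scipy 1.17.1, numpy 2.4.6, pandas 2.3.3 and, for plots, matplotlib 3.10.9, and were tested on simulated data.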

Additional observations from a re-analysis of the deposited data

Results flagged for a closer look

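The sets tested in groups of 4 libraries were the log2 values of each gene and the number of cytokinin genes above 0. In 3 of 34 sets, all of log2 values, 1 library lay farther from the rest than Dixon's critical value at 95% allows. Chance alone gives about 1 in 20, but this rate does not hold for sets with zeros, since with 3 zeros any other value passes, as for *CKX6* and nearly so for *AHK2*. *AHK2* had a log2 value of 11.27 in aliquot 1 and 0 to 0.31 in the other aliquots. *CKX6* had a log2 value of 6.616 in the first stele cell at 16 h and 0 in the others. *LOG7* had a log2 value of 11.21 in that same cell and 1.99 to 3.12 in the others.

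The *CFP* sequence, carried by the stele line, was above 3 reads in 10 of 24 libraries of QC cells and aliquots, whose line carries *GFP*. It was at most 3.40 FPM there (aliquot 3) and at 634 to 2721 FPM in stele cells. The *GFP* sequence was close to it in both, at most 3.41 FPM in these QC libraries (aliquot 3) and at 568 to 2432 FPM in stele cells. Whether the *CFP* reads of QC libraries came from *GFP* was not tested.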

How the results depend on the processing

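The number of genes called higher in stele cells at 0 h than in QC cells (7) was 13 without QC cells 14, 19 and 20 and 4 with 1 FPM or more in every stele cell. It stayed at 7 with each stele cell left out in turn (15.7% to 17.5% of all genes) and ran from 7 to 8 with each QC cell left out (14.5% to 17.0%), with *ARR5* added without QC cell 14. Leaving out a cell cannot make the groups of a called gene overlap. A call can then be lost only where the medians come closer than 1, so these counts are no test of the calls. The number higher at 16 h (2) was 0 with medians at least 2 apart, 1 without the first cell of both times and 1 to 3 with each stele cell left out in turn (11.0% to 16.7% of all genes). The number lower at 16 h (6) was 10 without the first cell of both times, 3 with 1 FPM or more in every cell at 0 h and 6 to 9 with each stele cell left out (13.7% to 17.3%). None of the cytokinin genes was called higher in QC cells under any alternative run. Over these, 0.043% to 0.824% of all genes were called higher there, so a count of 0 is no test. The median number of genes detected per QC cell (6) was 3.5 at 1 FPM or more and 2 at 10 FPM or more. The corresponding values were 7 and 6 per aliquot (13), and 10 after thinning, 17 and 12 per stele cell at 0 h (20) and 11.5 and 8.5 at 16 h (15). With each library left out in turn these medians were 13 for aliquots, 19.5 to 21.5 at 0 h and 15 at 16 h. By the CV of FPM values, 12 of 12 genes were more variable over cells than over aliquots, against 97.1% of all genes. Over 52 differences of medians and 1150 alternatives, none of a called gene changed sign. Leaving out cells could not change it, because the groups of a called gene do not overlap. The sign changed under 28 alternatives in 4 differences of genes that were not called, *AHK3* between QC and stele cells and *ARR2*, *ARR6* and *ARR12* between the times. Of the 1150, 22 moved by more than the spread between cells, all 22 under another pseudocount. The cause of these changes was not tested. No paired analysis was possible because the results come from no test and cells of different groups share only a number.

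The groups hold 3 and 4 stele cells, zeros shared by a whole set rest on its first library, and line, age and root cut differ between QC and stele cells. Genes under the authors' coverage minimum are at 0, so absence was not measured.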
